A study of Mus musculus with 12 samples.

Results

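The step from progenitor to preadipocyte was compared between 2 fat depots, and the genes described here are those whose change over that step differed, or ran in opposite directions, between the depots. The 12 libraries come from wild-type CD-1 mouse pups, males and females mixed, at postnatal day 3. The 4 sorted populations had 3 libraries each. The progenitors and preadipocytes of perivascular fat came from the thoracic aorta with its associated fat, and inguinal white fat gave DPP4+ cells as progenitors and ICAM1+ cells as preadipocytes. All 12 libraries of the series were used. Of 18855 genes tested, 2834 (15.0%) had a stage change that differed between the depots. No genotype, diet or drug separates the groups. Each library is RNA of a pool of pups rather than of an animal, and libraries with the same number share a pool across the 4 populations, per the labels. The sources used here name no marker for the perivascular sort, whereas the inguinal sort used DPP4 and ICAM1, so depot and gate cannot be told apart.

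Adipose progenitors are fibroblast-like cells of the connective tissue that can divide and turn into fat cells. In inguinal fat, DPP4+ cells of the interstitium lie upstream of ICAM1+ preadipocytes, which express the fat regulator Pparg and are closer to the adipocyte. Fat around the thoracic aorta of rodents resembles brown fat: its adipocytes carry many mitochondria and the uncoupling protein UCP1, while the inguinal depot is white fat that can acquire such cells. A stage change is given here as the log2 ratio of preadipocytes to progenitors within a depot, and the interaction is the perivascular stage change minus the inguinal one. A positive interaction therefore means that a gene rose more, or fell less, over the step in perivascular cells. Levels are CPM, counts brought to a common library size by TMM scaling, and can be compared between libraries for a gene but not between genes. A change was called at an adjusted p under 0.05 in edgeR's quasi-likelihood test with Benjamini-Hochberg adjustment over all genes tested.

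Library totals ran from 15614628 to 25674461 counts. Some libraries stood apart from their group, and results are given with and without 3 of them. Perivascular progenitor library 1 correlated best with perivascular preadipocyte library 1 (Pearson r 0.967 across genes) rather than with its own group (0.956 with each). Perivascular preadipocyte library 1 lay between the groups for adipocyte genes: the summed level of 10 mature adipocyte markers was 630.2, 1666 and 1756 CPM in the perivascular preadipocytes and 142, 148 and 148 CPM in the perivascular progenitors. The same sum was 23.3, 225 and 308 CPM in the DPP4+ libraries, so that library 1 lacked adipocyte transcripts that libraries 2 and 3 held, and 84.1, 109.8 and 76.1 CPM in the ICAM1+ libraries. DPP4+ library 2 had the highest summed level of 10 mast cell markers, 87.3, 336 and 79.1 CPM in DPP4+ libraries 1 to 3, and of 13 haematopoietic markers, 78.4, 235 and 63.6 CPM. The libraries left out together are perivascular progenitor library 1, perivascular preadipocyte library 1 and DPP4+ library 2. In bulk RNA, fewer cells of a type and less RNA per cell cannot be told apart.

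**Figure D1:**
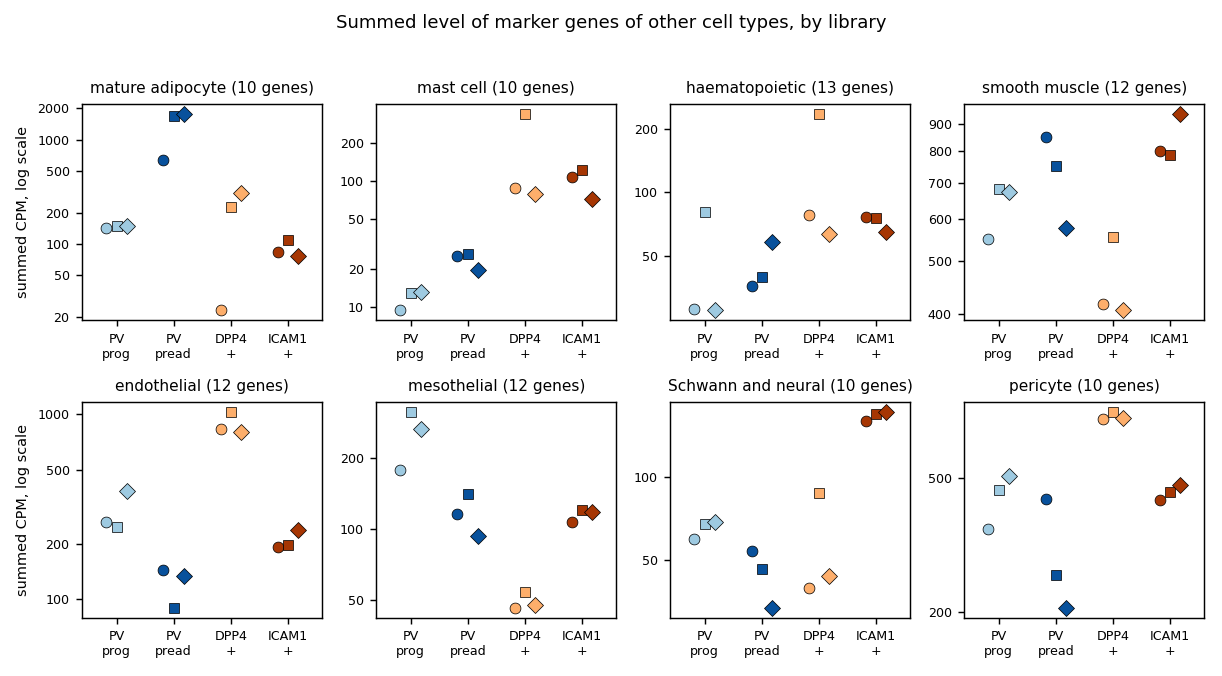
Summed CPM (log axis) of marker genes of 8 other cell types in each library, by population, with circles, squares and diamonds for libraries 1, 2 and 3. Mature adipocyte markers are highest in the perivascular preadipocytes and spread widely among the DPP4+ libraries, and DPP4+ library 2 is highest for mast cell and haematopoietic markers. In DPP4+ libraries 1 to 3, Tek alone gives 707, 730 and 615 CPM of endothelial sums of 838, 1032 and 800. Kcnj8 alone gives 494, 460 and 525 CPM of pericyte sums of 750, 790 and 757 there. PV prog and PV pread are perivascular progenitors and preadipocytes.

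The interaction was higher, in the perivascular direction, for 1201 genes (6.37%) and lower for 1633 (8.66%). It was at least 2-fold for 2387 of the 2834 called genes, and for 2791 the 3 same-numbered sets of libraries gave the same sign, as they did for 45.6% of all genes tested. The perivascular stage change passed the test for 6198 genes (32.9%), 3168 higher (16.8%) and 3030 lower (16.1%). The inguinal stage change passed for 3384 (17.9%), 1761 higher (9.34%) and 1623 lower (8.61%). Scaling by library totals in place of TMM shifted the median interaction of all genes from -0.003 to -0.208, and the share of calls that were higher from 42.4% to 23.3%. Without the 3 libraries, 7783 of 19396 genes tested were called, 3862 higher and 3921 lower, and 2752 of the 2834 were among them. Counts of list members without the 3 libraries, given below, are to be read against these larger totals. The 3 were picked from their own values, and the perivascular ones lay toward the other stage of their depot. Leaving them out sets the perivascular stages further apart by choice, so these counts are no independent check.

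Genes with a called interaction fell into several shapes. In 1330 of them the perivascular change passed the test and the inguinal one did not, 755 higher and 575 lower. In 898 the inguinal change passed and the perivascular one did not, 630 higher and 268 lower over the step. Both changes passed in the same direction but by different amounts in 158, and in opposite directions in 307. Neither passed alone in 141. The 307 reversed genes comprise 238 that fell in perivascular cells and rose in inguinal cells (1.26% of genes tested) and 69 that rose in perivascular and fell in inguinal cells (0.366%).

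Reversal was unevenly spread over the inguinal step. Among 703 genes that rose over the inguinal step and also changed in perivascular cells, 33.9% fell there. Among 845 genes that fell over the inguinal step and also changed in perivascular cells, 8.17% rose there. These shares were 45.6% and 18.4% without the 3 libraries and 20.5% and 7.76% with library totals as the scale, and the 2 shares were not tested against each other. Across all genes the 2 stage changes, which share no library, had a Pearson correlation of 0.239 and a Spearman correlation of 0.242.

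Which population stood apart differed between the directions. Of the 1201 genes with a higher interaction, 646 (53.8%) had the perivascular preadipocyte libraries above the other 9, as did 14.5% of all genes tested, and 297 (24.7%) had the DPP4+ libraries above the other 9, as did 11.2% of all genes tested. Of the 1633 genes with a lower interaction, 555 (34.0%) had the ICAM1+ libraries above the other 9 (5.83% of all genes), 506 (31.0%) the DPP4+ libraries below the other 9 (9.76%), 472 (28.9%) the perivascular preadipocytes below the other 9 (11.2%) and 226 (13.8%) the perivascular progenitors above the other 9 (3.39%). These counts describe the called genes, since a group that stands apart contributes to the interaction itself.

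**Figure D2:**
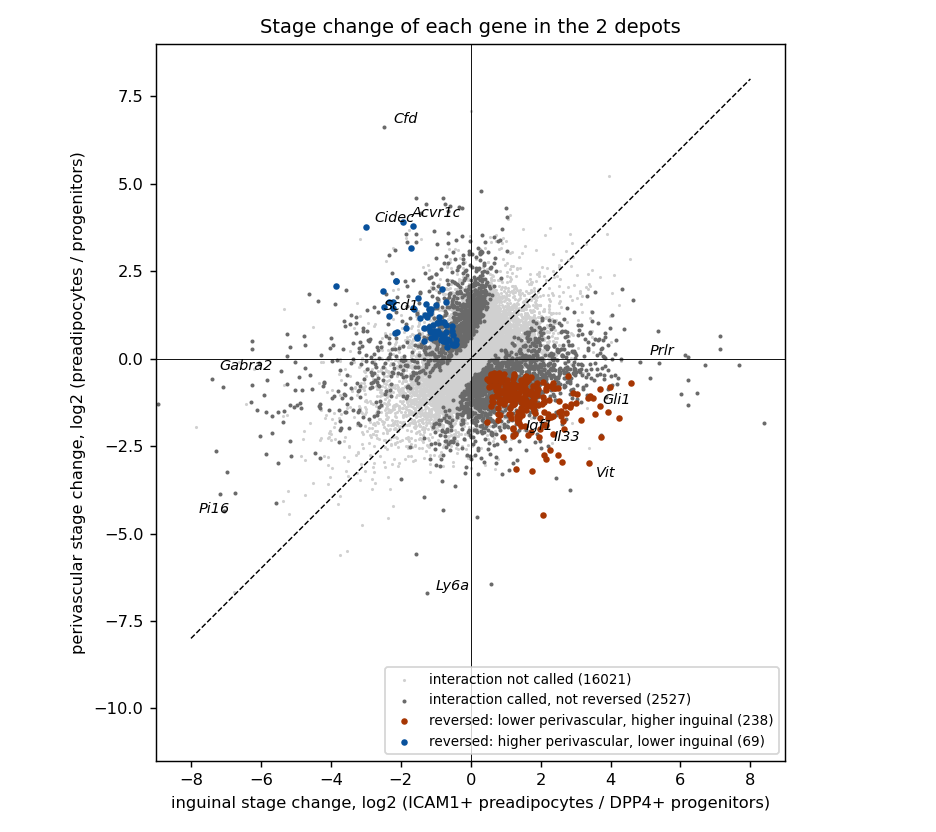
Stage change of each of 18855 genes in inguinal cells (horizontal axis, log2) and perivascular cells (vertical axis, log2), where each point is a gene and the dashed line marks equal changes. The 238 genes that fell in perivascular and rose in inguinal cells fill the lower right, and the 69 with the opposite reversal the upper left.

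Among genes that fell in perivascular cells and rose in inguinal cells, Vit, which encodes the matrix protein vitrin (chromosome 17, 78508064 to 78627408), had the lowest interaction of those named by the rule. Its level was 27.3, 37.4 and 36.1 CPM in the perivascular progenitors, 5.75, 4.2 and 2.84 in the perivascular preadipocytes, 2.07, 4.18 and 1.72 in the DPP4+ and 26, 26.9 and 30.2 in the ICAM1+ libraries. No library of a stage overlapped the other stage of its depot, and the ranges of perivascular progenitors and ICAM1+ cells overlapped each other. The interaction was -6.35 (SE 0.46, adjusted p = 7.66e-06), from stage changes of -2.97 and 3.38.

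Il33, the gene of an alarmin cytokine released by stromal cells (chromosome 19, 29925114 to 29960718), was at 398, 392 and 497 CPM in perivascular progenitors and 178, 93.9 and 76.6 in perivascular preadipocytes. Inguinal levels were 14.9, 15.5 and 13.8 CPM in DPP4+ and 59.3, 68.9 and 69.5 in ICAM1+ libraries. Both depots separated without overlap, in opposite directions, and the perivascular preadipocyte library 1 was the nearest of its group to the progenitors (interaction -4.04, SE 0.37, adjusted p = 3.72e-05). Zim1, an imprinted zinc finger gene (chromosome 7, 6671269 to 6696450), fell in perivascular cells from 115, 412 and 396 to 78.8, 61.3 and 107 CPM and rose in inguinal cells from 70.9, 104 and 86.6 to 333, 382 and 408. Perivascular progenitor library 1 was low for this gene, and the groups still did not overlap (interaction -4.0, adjusted p = 0.000562). Sphk1, which makes the lipid mediator sphingosine 1-phosphate (chromosome 11, 116530925 to 116536674), went from 4.23, 5.18 and 4.49 to 1.52, 1.22 and 1.5 CPM in perivascular cells. In inguinal cells it went from 5.93, 5.09 and 3.69 to 21.7, 19.5 and 16.7 CPM, the reverse direction (interaction -3.68, adjusted p = 2.22e-05).

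The other genes chosen by the size of this reversal include a synaptic adhesion gene and a secretory granule gene. Nlgn1, which encodes neuroligin 1, went from 9.6, 14.6 and 19 to 2.02, 2.59 and 1.23 CPM in perivascular and from 0.571, 0.987 and 0.082 to 3.06, 2.59 and 1.85 CPM in inguinal cells. Scg3, which encodes a secretogranin, went from 9.03, 11.8 and 8.87 to 1.87, 2.74 and 2.25 CPM in perivascular and from 21.3, 16 and 22.4 to 59.4, 75 and 61.2 CPM in inguinal cells. Their interactions were -5.04 and -3.82 (adjusted p = 0.000576 and 7.98e-06), and in both depots the libraries of the 2 stages did not overlap. Ccbe1, a gene of lymphatic vessel growth, had an interaction of -4.42 (adjusted p = 0.0002), and Chodl, which encodes chondrolectin, one of -4.84 (adjusted p = 0.00181). The inguinal rise of Chodl, from 2.43, 0.683 and 0.41 to 9.44, 3.52 and 2.52 CPM, missed the threshold without DPP4+ library 2 or 3 or without ICAM1+ library 1 (stage change 2.09, 1.35 to 1.82 in those fits). Ms4a4d and Plekha6 had interactions of -3.97 and -4.23 (adjusted p = 8.86e-06 and 7.32e-05).

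**Figure D3:**
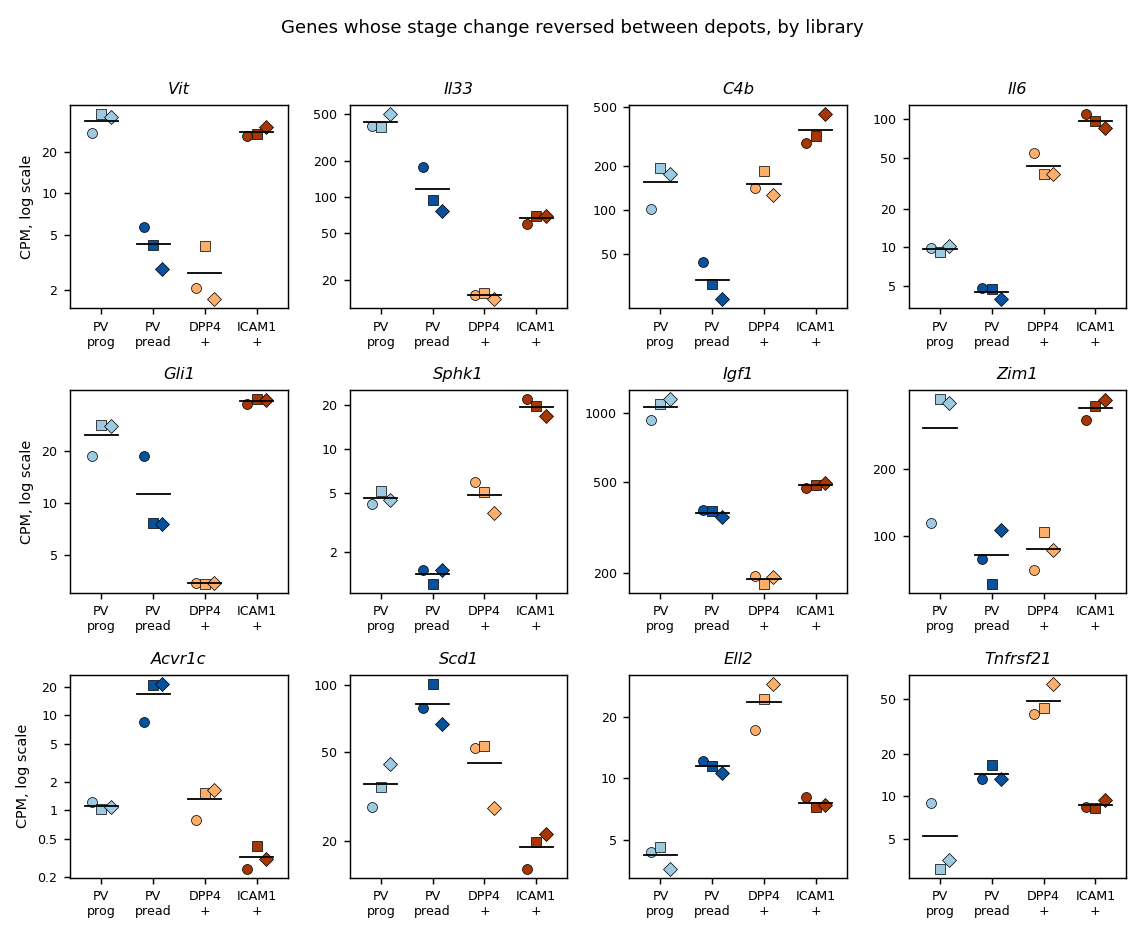
CPM (log axis) of 12 genes that reversed, with a symbol for each library (circle, square and diamond for libraries 1, 2 and 3) and a bar for the group mean. The first 8 genes fall from perivascular progenitors to preadipocytes and rise from DPP4+ to ICAM1+ cells, and the last 4 do the opposite.

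Genes that rose in perivascular and fell in inguinal cells were fewer, and include the lipid metabolism genes Scd1 and Cidec. Acvr1c, which encodes the activin receptor ALK7 of adipocytes (chromosome 2, 58267453 to 58357895), was at 1.24, 1.04 and 1.08 CPM in perivascular progenitors and 8.55, 20.7 and 21.2 in perivascular preadipocytes. The inguinal libraries had 0.786, 1.52 and 1.64 CPM in DPP4+ and 0.245, 0.426 and 0.308 in ICAM1+ cells, a fall at low levels. The stages did not overlap in either depot (interaction 5.84, SE 0.59, adjusted p = 7.41e-05). Scd1, the desaturase that makes monounsaturated fatty acids (chromosome 19, 44394455 to 44407879), went from 28.3, 34.9 and 44.3 to 79, 101 and 66.6 CPM in perivascular cells. It went from 51.9, 53.2 and 28.1 to 15, 19.7 and 21.4 CPM in inguinal cells, again without overlap in either depot (interaction 2.44, SE 0.37, adjusted p = 0.00116).

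Cidec, which encodes a protein that enlarges lipid droplets (chromosome 6, 113424634 to 113435760), rose in perivascular cells from 4.34, 7.08 and 9.58 to 43, 133 and 108 CPM. Inguinal levels were 0.857, 37.1 and 45.2 CPM in DPP4+ and 2.51, 4.57 and 3.14 in ICAM1+ libraries. DPP4+ library 1 thus lay below the ICAM1+ libraries and DPP4+ libraries 2 and 3 above them. The mature adipocyte marker sum had the same order, but it includes Cidec, and Cfd gave 3.71, 112 and 185 CPM of its DPP4+ values. The interaction was 6.76 (SE 1.25, adjusted p = 0.00397). The inguinal change (-3.0, adjusted p = 0.0323) missed the threshold without DPP4+ library 2 or 3, without any of the ICAM1+ libraries and with limma-voom library weights (-0.97). The inguinal falls of Gchfr, a regulator of tetrahydrobiopterin synthesis, and of Bnip3, a mitophagy receptor gene, also missed the threshold with library totals, without DPP4+ library 2 or 3 and without several of the ICAM1+ libraries, while their interactions (4.89 and 2.48, adjusted p = 0.000604 and 0.00443) passed in each alternative fit. The exons of Bnip3 overlap those of other genes over 22.3% of their length, and those of St3gal6 over 26.0%.

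Tnfrsf21, which encodes death receptor 6 (chromosome 17, 43016555 to 43089189), was at 9.03, 3.05 and 3.52 CPM in perivascular progenitors and 13.4, 16.7 and 13.3 in perivascular preadipocytes. It was at 38.6, 42.9 and 63.4 CPM in DPP4+ and 8.39, 8.29 and 9.46 in ICAM1+ libraries (interaction 3.94, adjusted p = 0.000303). Ell2, a transcription elongation factor gene (chromosome 13, 75706757 to 75772364), went from 4.39, 4.61 and 3.62 to 12.1, 11.5 and 10.7 CPM in perivascular and from 17.4, 24.6 and 29 to 8.09, 7.24 and 7.4 CPM in inguinal cells (interaction 3.08, adjusted p = 4.05e-05). For both genes the stages separated without overlap in each depot. Thbs4, a thrombospondin gene, had an interaction of 5.45 (adjusted p = 0.00081), and its inguinal change (-1.65, adjusted p = 0.0411) missed the threshold in 8 of the 20 alternative fits. Lrrc8b, a volume-regulated anion channel gene, and St3gal6, a sialyltransferase gene, had interactions of 2.54 and 2.84 (adjusted p = 0.0023 and 0.00119), and their inguinal falls missed the threshold in 4 and 1 of the 20 alternative fits (-1.15 to -0.81 and -1.08).

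Many genes of fat storage and of oxidative metabolism had a higher interaction. Of 32 adipocyte and lipid storage genes, 19 had a higher interaction and 1 a lower one, with a median interaction of 2.07 against -0.003 over all genes. Over the perivascular step 24 rose and 0 fell, and over the inguinal step 4 rose and 3 fell. Cfd, which encodes adipsin (chromosome 10, 79890853 to 79892655), was at 0.62, 0.461 and 1.19 CPM in perivascular progenitors and 43.1, 93.6 and 90.4 in perivascular preadipocytes. In inguinal cells it was at 3.71, 112 and 185 CPM in DPP4+ and 9.68, 32.8 and 11.3 in ICAM1+ libraries, which overlap because DPP4+ library 1 is low (interaction 9.10, SE 1.47, adjusted p = 0.00176). Pck1, the gene of a glyceroneogenic enzyme (chromosome 2, 173153048 to 173159273), went from 3.82, 5.87 and 8.6 to 60.5, 169 and 101 CPM in perivascular cells and was at 2.07, 14.1 and 18.2 CPM in DPP4+ and 3.55, 4.65 and 4.42 in ICAM1+ libraries (interaction 5.61, adjusted p = 0.00119). Of the 10 mature adipocyte markers, 9 are also on this list and 8 had a higher interaction. Their part in the result was not tested. Without the 3 libraries, 23 lipid storage genes had a higher and 2 a lower interaction.

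Adipoq, which encodes the adipocyte hormone adiponectin (chromosome 16, 23146536 to 23158028), was at 90.4, 95.9 and 91.2 CPM in perivascular progenitors and 322, 872 and 1095 in perivascular preadipocytes. It was at 3.79, 22.1 and 33.7 CPM in DPP4+ and 29.5, 32.6 and 21.2 in ICAM1+ libraries, which overlap. Its interaction of 2.56 (adjusted p = 0.0498) missed the threshold in 11 of the 20 alternative fits, with the replicate block, with library totals and without most single libraries. Fabp4, a fatty acid carrier gene, rose in both depots (stage changes 3.01 and 1.47), and its interaction of 1.55 did not pass (adjusted p = 0.0774), although it passed in 4 of the 20 alternative fits, among them the fit without perivascular preadipocyte library 1 (1.91). Pparg, which encodes a nuclear receptor needed to form fat cells (chromosome 6, 115360951 to 115490399), went from 52.2, 41.7 and 40.3 to 96.2, 187 and 191 CPM in perivascular cells. In inguinal cells it went from 10.3, 17.2 and 15.8 to 73.7, 76.1 and 69.8 CPM, the same direction. Its interaction was -0.52 (SE 0.36, adjusted p = 0.334) and did not pass, and neither did that of Cebpa, the partner regulator (0.25, SE 0.80, adjusted p = 0.859), except without the 3 libraries (1.34).

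Of 23 thermogenic genes, 9 had a higher and 0 a lower interaction (median 1.68), against 14 and 1 without the 3 libraries. Ucp1, the uncoupling protein that lets mitochondria release heat (chromosome 8, 83290352 to 83298452), was at 3.25, 5.53 and 8.66 CPM in perivascular progenitors and 64.8, 225 and 195 in perivascular preadipocytes. In inguinal cells it was at 0.643, 0.228 and 0.656 CPM in DPP4+ and 0.551, 0.658 and 0.668 in ICAM1+ libraries, below every perivascular library, and these stages overlap. The interaction was 4.49 (SE 0.91, adjusted p = 0.00696). Cox7a1, the cytochrome oxidase subunit of heart, muscle and brown fat (chromosome 7, 30184144 to 30186078), went from 3.3, 4.14 and 3.46 to 21.2, 83.9 and 109 CPM in perivascular cells and from 2.43, 1.97 and 2.38 to 2.21, 1.59 and 1.95 CPM in inguinal cells (interaction 4.54, adjusted p = 0.000969). Cidea, a lipid droplet gene of brown fat, and Plin5, a perilipin that links droplets to mitochondria, had interactions of 5.40 and 5.40 (adjusted p = 0.00383 and 0.005). Chchd10, a mitochondrial gene outside the list, had one of 5.70 (adjusted p = 0.0012). Prdm16 and Ebf2, regulators of brown fat identity, had interactions of 0.85 (SE 0.47) and -0.18 (SE 0.25) that did not pass (adjusted p = 0.239 and 0.653), although that of Prdm16 passed without perivascular preadipocyte library 1 (1.12), without the 3 libraries (0.84) and with limma-voom weights (0.87).

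Nuclear genes of the respiratory chain moved together. All 49 rose over the perivascular step and 0 changed over the inguinal step, and 37 had a higher interaction (median 1.43). The median stage change was 1.64 in perivascular and 0.22 in inguinal cells. Cox5a, a cytochrome oxidase subunit gene (chromosome 9, 57521274 to 57532426), was at 22.3, 22.2 and 12.1 CPM in perivascular progenitors and 65.2, 167 and 249 in perivascular preadipocytes, against 15.1, 12.1 and 18.5 in DPP4+ and 23.3, 17.2 and 15.7 in ICAM1+ libraries. Perivascular preadipocyte library 1 was the lowest of its group, and the inguinal stages overlapped. Its interaction was 2.79 (SE 0.56, adjusted p = 0.00666), and those of Uqcrfs1 and Cyc1 of complex III and Sdhd of complex II were 2.75, 2.09 and 2.30 (adjusted p = 0.00729, 0.00723 and 0.00213). The number called was 19 of 49 with the replicate block, 21 with library totals and 49 without the 3 libraries. Of 13 genes encoded in mitochondrial DNA, 0 had a called interaction (2 at an unadjusted p under 0.05) and 9 had one without the 3 libraries, with a median of 0.64 and 0.999.

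Fatty acid oxidation and the citrate cycle followed the same pattern, with 27 of 34 genes higher and 0 lower (median 1.56). Counts with the replicate block or library totals are not given here for this list or for the lipid storage and thermogenic lists. Etfa, which passes electrons from fatty acid oxidation to the respiratory chain (chromosome 9, 55454508 to 55512243), went from 161, 160.3 and 171 to 316, 698 and 782 CPM in perivascular cells and from 264, 217 and 269.5 to 167, 170.2 and 159 CPM in inguinal cells (interaction 2.47, adjusted p = 0.00102). Idh3a, a citrate cycle enzyme gene (chromosome 9, 54586334 to 54604661), went from 141, 179 and 179 to 494, 1318 and 1382 CPM in perivascular cells and was at 59.1, 53.7 and 62.3 in DPP4+ and 77.6, 79.5 and 73.1 in ICAM1+ libraries (interaction 2.29, adjusted p = 0.00368). Perivascular preadipocyte libraries 2 and 3 were more than 2-fold above library 1 for both genes, as they were for the mature adipocyte marker sum. Acadl, a long-chain acyl-CoA dehydrogenase gene, had an interaction of 2.43 (adjusted p = 0.00235). Slc25a20, the carnitine carrier gene, had one of 2.33 (adjusted p = 0.000362) and reversed, with an inguinal fall of -0.70 that missed the threshold in 8 of the 20 alternative fits. Of 42 cytosolic ribosomal protein genes, 41 rose in perivascular and 0 in inguinal cells, but 1 had a called interaction, Rpl13 (1.09, adjusted p = 0.0433), which missed the threshold in 13 of the 20 alternative fits. Without the 3 libraries 41 were called, all of them higher.

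**Figure D4:**
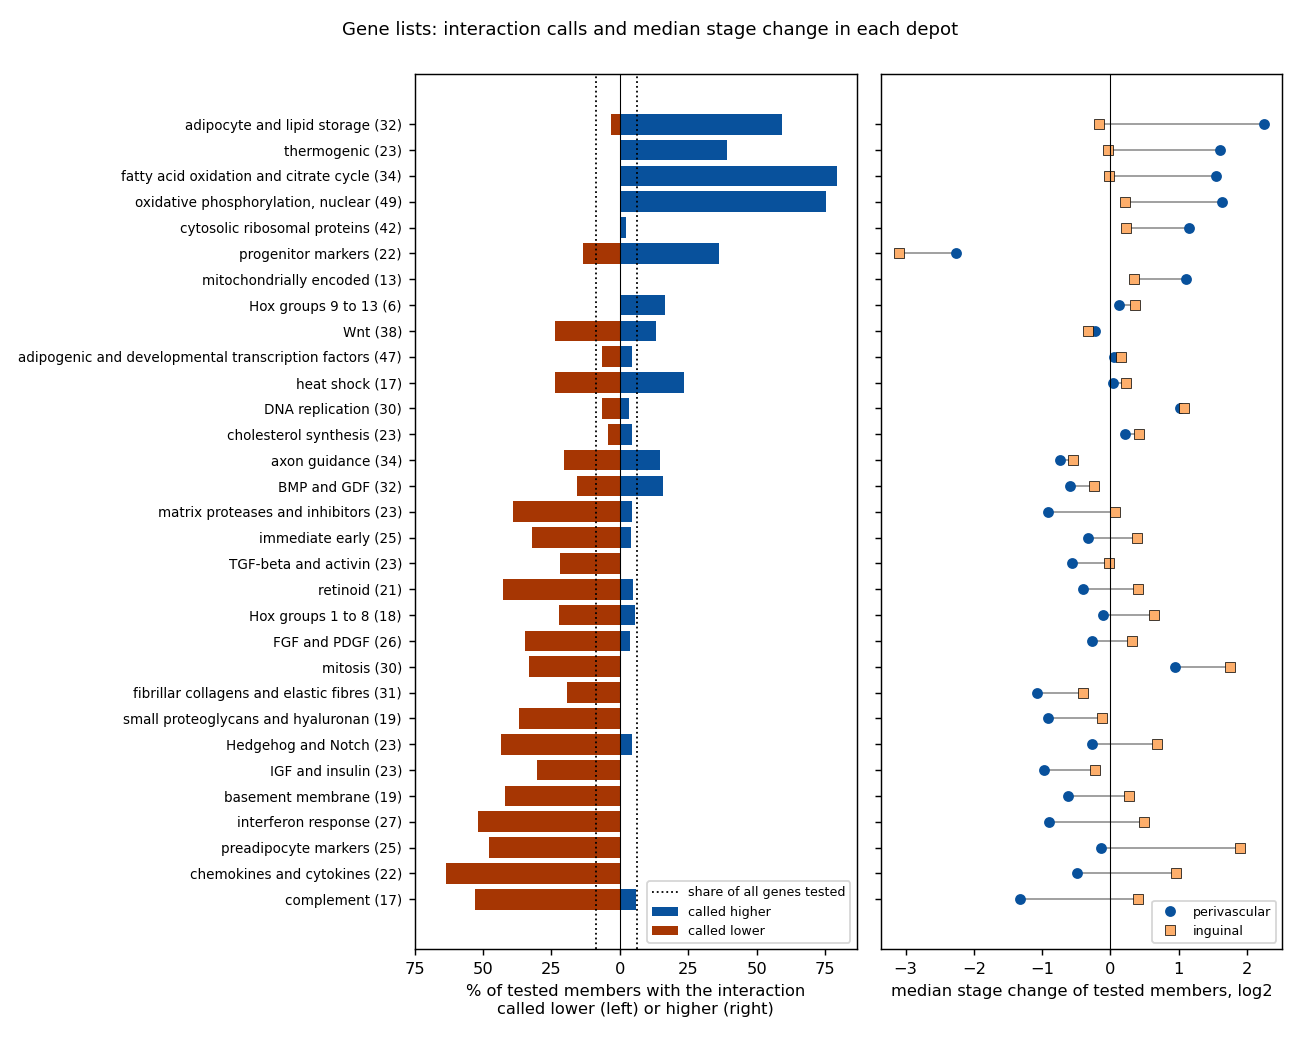
For each gene list (tested members in brackets), the share of members with the interaction called lower or higher (left, bars from 0 in percent, dotted lines at 8.66% and 6.37% of all genes) and the median stage change in each depot (right, log2). Lists are ordered by median interaction: lipid storage, thermogenic, fatty acid oxidation and respiratory chain genes lie at the top with the perivascular median far above the inguinal one, and complement, cytokine, preadipocyte and interferon lists at the bottom with the perivascular median below it.

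Many cytokine, complement and interferon genes had lower interactions. Over the perivascular step 9 of 22, 10 of 17 and 11 of 27 of them fell, and over the inguinal step 13, 7 and 8 rose. Of 22 chemokine and cytokine genes, 14 had a lower and 0 a higher interaction (median -1.42), and 6 of them reversed: Ccl2, Cxcl12, Cxcl16, Il6, Il33 and Il1r1. Il6, the gene of a pleiotropic inflammatory cytokine (chromosome 5, 30013114 to 30019981), went from 9.81, 9.21 and 10.3 to 4.82, 4.74 and 3.97 CPM in perivascular cells and from 54.6, 37.5 and 37.3 to 109, 96.6 and 85.6 CPM in inguinal cells, without overlap in either depot. Its interaction was -2.28 (SE 0.25, adjusted p = 0.000122). Cxcl16, a membrane-bound chemokine gene, had an interaction of -2.37 (adjusted p = 0.00239), and its perivascular fall missed the threshold without perivascular preadipocyte library 2 (-0.88) or 3 (-0.81). Cxcl13, a B cell chemokine gene (chromosome 5, 95956951 to 95961068), had the lowest interaction of the genes named by the rule, -6.82 (SE 0.56, adjusted p = 1.58e-05). It was at 65.8, 49.9 and 35.9 CPM in perivascular progenitors and 29.5, 28.7 and 40.6 in perivascular preadipocytes, which overlap. In inguinal cells it went from 0, 0.228 and 0.164 CPM in DPP4+ to 10.4, 8.36 and 11 in ICAM1+ libraries.

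Of 17 complement genes, 9 had a lower interaction and 1 a higher one, the adipsin gene Cfd (median -1.98), and C1ra, C1s1, C2, C3 and C4b reversed. C4b, a component of the classical and lectin pathways (chromosome 17, 34728380 to 34743882), was at 101, 191 and 174 CPM in perivascular progenitors and 44.1, 31.1 and 24.8 in perivascular preadipocytes. Inguinal levels were 142, 185 and 126 CPM in DPP4+ and 286, 319 and 446 in ICAM1+ libraries (interaction -3.44, SE 0.40, adjusted p = 0.0002). C1s1, a protease of the first complement complex (chromosome 6, 124530345 to 124542359), went from 304, 319 and 345 to 146, 118 and 97.3 CPM in perivascular cells and from 132, 132 and 114 to 382, 431 and 478 CPM in inguinal cells. Its interaction was -3.19 (adjusted p = 7.96e-06), and its near-identical copy C1s2 also reversed (-3.41), so that reads may be split between them. C2 had an interaction of -2.96 (adjusted p = 0.000426), with 46.9% of its exon length shared with other genes.

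Of 27 interferon response genes, 14 had a lower and 0 a higher interaction (median -1.22), and 1 of them reversed. This was Gbp2, an interferon-induced GTPase gene (chromosome 3, 142620602 to 142638008), which went from 33.2, 27.2 and 29.1 to 17.6, 14.9 and 15.2 CPM in perivascular cells and from 20.2, 20.9 and 13.4 to 35.3, 32.1 and 39 CPM in inguinal cells (interaction -1.87, SE 0.26, adjusted p = 0.000604). Psmb8 and Psmb9, subunits of the immunoproteasome, had interactions of -2.15 and -1.82 (adjusted p = 0.000821 and 0.00916), with inguinal rises of 2.27 and 2.60. Oasl2 had one of -2.06 (adjusted p = 0.0014), with a perivascular fall of -1.70 and an inguinal change that did not pass. Outside the list, Ifitm1, an interferon-induced membrane protein gene (chromosome 7, 140967221 to 140969825), was at 2.07, 2.81 and 2.21 CPM in DPP4+ and 38.8, 35.1 and 39.5 in ICAM1+ libraries, and at 5.94, 5.81 and 6.28 and 2.51, 3.37 and 4.4 CPM in perivascular progenitors and preadipocytes (interaction -4.81, adjusted p = 3.21e-06). Haematopoietic markers, of which 0 of 13 had a called interaction (0 at an unadjusted p under 0.05), summed to 28, 80.6 and 27.7 CPM in perivascular progenitors, 36.2, 39.7 and 58.1 in perivascular preadipocytes and 76.5, 75.1 and 64.6 in ICAM1+ libraries. Without the 3 libraries, the lower calls were 15 of 23 cytokine, 11 of 17 complement and 17 of 27 interferon genes. Of 25 immediate early genes, which respond to tissue digestion among other stimuli, 8 had a lower and 1 a higher interaction, Egr2 with -2.27 and Zfp36 with -1.46 (adjusted p = 0.00175 and 0.00381), and their part in these results was not tested. The perivascular fall of Zfp36 missed the threshold in 13 of the 20 alternative fits (-0.57 to -0.36).

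The promoters of Il6 and Gbp2 are shown as those of reversed genes of the cytokine and interferon lists, and Gbp2 was the only reversed gene of its list. Sequences are from RefSeq on GRCm38.p6, 250 bases before to 50 after the gene start, 5′ to 3′ on the gene's strand, and 11916 of the 18855 genes tested had one. Words were searched on both strands: the CCAAT box (CCAAT), the cell cycle homology region (TTTGAA), E2F (TTTGGCGC or TTTCGCGC), AP-1 (TGANTCA), ERR (TNAAGGTCA), the interferon element (GAAA and GAAA with any 2 bases between) and NF-kB (GGGA and TTCC with any 2 bases between). Capitals mark every match to these words on either strand. The Il6 promoter lies at chr5:30012864-30013163 (plus strand) and that of Gbp2 at chr3:142620413-142620712 (plus strand).
Il6: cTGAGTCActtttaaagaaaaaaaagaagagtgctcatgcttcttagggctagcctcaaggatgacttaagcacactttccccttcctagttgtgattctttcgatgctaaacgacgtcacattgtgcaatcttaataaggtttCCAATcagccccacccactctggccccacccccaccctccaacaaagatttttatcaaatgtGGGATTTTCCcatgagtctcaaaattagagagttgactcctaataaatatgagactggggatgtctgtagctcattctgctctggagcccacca
Gbp2: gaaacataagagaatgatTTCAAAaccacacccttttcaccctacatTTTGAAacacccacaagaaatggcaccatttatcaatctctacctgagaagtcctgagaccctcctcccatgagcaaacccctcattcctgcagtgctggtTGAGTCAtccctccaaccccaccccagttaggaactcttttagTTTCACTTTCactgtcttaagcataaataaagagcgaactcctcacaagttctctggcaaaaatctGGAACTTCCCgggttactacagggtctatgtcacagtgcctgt
In Il6 the capitals are an AP-1 word, a CCAAT box and an NF-kB word, and in Gbp2 cell cycle homology words, an AP-1 word, an interferon element and an NF-kB word. The interferon element was present in 52.4% of 21 promoters of the interferon list and 3.49% of all 27025 promoters. Its share was 2.99% among promoters of genes tested and 5.53% among 1049 promoters of genes with a lower interaction. Of 166 promoters of genes that fell in perivascular and rose in inguinal cells, 4.82% held it. The NF-kB word was present in 31.2% of 16 promoters of the cytokine list and 1.43% of all promoters. Its share was also 1.43% among genes tested and among genes with a lower interaction, and 3.61% among those 166. These shares describe letters in the window and say nothing of which factor is bound.

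Signals that pattern tissue also differed between the depots. Of 23 Hedgehog and Notch genes, 10 had a lower and 1 a higher interaction (median -0.82), and the Hedgehog effectors Gli1 and Gli2 were among those that reversed. Gli1, a transcription factor that Hedgehog signalling induces (chromosome 10, 127329882 to 127341974), went from 18.6, 28 and 27.9 to 18.7, 7.63 and 7.56 CPM in perivascular cells and from 3.43, 3.42 and 3.44 to 37.4, 39.7 and 39.2 CPM in inguinal cells. Its interaction was -4.63 (SE 0.45, adjusted p = 5.71e-05). Perivascular preadipocyte library 1 was the highest of its group and lay just above perivascular progenitor library 1, so that the perivascular stages overlapped, and the perivascular fall missed the threshold without perivascular preadipocyte library 2 or 3.

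Hhip, which encodes a decoy that binds Hedgehog ligands (chromosome 8, 79965851 to 80058006), was at 149, 172 and 232 CPM in perivascular progenitors and 284, 58.3 and 37.2 in perivascular preadipocytes, where library 1 lay above all progenitor libraries and libraries 2 and 3 below them. It rose in inguinal cells from 4.21, 5.92 and 3.94 to 75.6, 83.3 and 101 CPM (interaction -4.75, SE 0.84, adjusted p = 0.00306). The Notch target Heyl was also highest in library 1 of the perivascular preadipocytes, at 220.4, 74.6 and 45.6 CPM against 58.5, 80.7 and 97.2 in the progenitors, and had an interaction of -3.63 (adjusted p = 0.00534). Its perivascular stage change was 0.53 with all libraries and -0.63 without the 3 libraries, whereas that of Hhip was -0.54 and -2.15. Notch3, a Notch receptor gene of mural cells, had an interaction of -2.80 (adjusted p = 0.000604).

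Growth factor genes included further reversals. Igf1, the insulin-like growth factor gene (chromosome 10, 87858265 to 87937042), fell in perivascular cells from 929, 1090.1 and 1146 to 376, 371 and 352 CPM and rose in inguinal cells from 194, 179 and 191 to 470.0, 483 and 495 CPM. The libraries of each group lay close together and no stages overlapped (interaction -2.89, SE 0.19, adjusted p = 3.46e-06). Of 23 IGF and insulin genes, 7 had a lower and 0 a higher interaction (median -0.88; 11 and 3 without the 3 libraries), among them Dlk1, a preadipocyte surface gene (-1.40, adjusted p = 0.00338), and Plagl1, an imprinted regulator of growth (-1.42, adjusted p = 0.00333). Fgf7, a fibroblast growth factor gene (chromosome 2, 126034658 to 126091185), fell from 126, 101 and 119.9 to 65, 43.9 and 44.1 CPM in perivascular cells and rose from 44.7, 37.7 and 47.7 to 93.8, 97.3 and 91.3 CPM in inguinal cells (interaction -2.30, adjusted p = 0.000103). Pdgfc, a platelet-derived growth factor gene (chromosome 3, 81036416 to 81214040), did the opposite, from 4.34, 4.89 and 5.57 to 10.6, 15.5 and 16.6 CPM in perivascular and from 6.64, 9.26 and 9.76 to 4.78, 4.07 and 4.01 CPM in inguinal cells (interaction 2.52, adjusted p = 0.000369). Of 26 FGF and PDGF genes, 9 had a lower interaction and Pdgfc a higher one. Pdgfra, the receptor that marks fibroblastic progenitors (chromosome 5, 75152292 to 75198215), went from 388, 665 and 716 to 239.6, 164 and 118 CPM in perivascular cells and was at 485, 544 and 449.9 CPM in DPP4+ and 530.3, 583 and 755 in ICAM1+ libraries, which overlap (interaction -2.10, adjusted p = 0.00397).

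Most retinoid genes that differed had a lower interaction. Of 21, 9 had a lower and 1 a higher interaction (median -0.57), and Aldh1a2 and Lrat were among those that reversed. Dhrs3, a retinaldehyde reductase gene, had an interaction of -1.67 (adjusted p = 0.000637). Aldh1a3, which makes retinoic acid (chromosome 7, 66390890 to 66427517), was the gene with a higher interaction (2.53, adjusted p = 7.66e-06): it fell in both depots, from 47.7, 55.2 and 52.1 to 5.85, 6.89 and 6.76 CPM in perivascular cells and from 649.7, 629 and 679 to 13.7, 14.2 and 14.6 CPM in inguinal cells, where the drop was larger.

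Among BMP and Wnt genes, several ligands that were high in DPP4+ cells had a higher interaction. Of 32 BMP and GDF genes, 5 had a higher and 5 a lower interaction (11 and 11 without the 3 libraries), and the 5 higher ones were Bmp2, Bmp3, Bmp4, Bmp6 and Bmp7. The interaction of Bmp2 (2.44, adjusted p = 0.044) missed the threshold with library totals and without any of 9 single libraries (1.53 to 2.53). Of 38 Wnt genes, 5 had a higher and 9 a lower interaction (14 and 12 without the 3 libraries). Bmp4, a ligand that commits cells to fat (chromosome 14, 46383520 to 46390669), was at 59.6, 51.3 and 55.4 CPM in DPP4+ and 2.7, 3.68 and 2.62 in ICAM1+ libraries. In perivascular cells it went from 10.6, 9.21 and 11.9 to 9.19, 4.5 and 5.79 CPM, a smaller fall (interaction 3.50, SE 0.35, adjusted p = 6.45e-05). Bmp7 (3.30, adjusted p = 0.028) also fell in both depots, and its interaction missed the threshold without any of 5 single libraries, perivascular preadipocyte 1 or 2, DPP4+ 3 and ICAM1+ 2 or 3 (2.83 to 3.48). Wnt16, a noncanonical Wnt gene (chromosome 6, 22288227 to 22298522), was at 16.3, 12.9 and 14.3 CPM in DPP4+ and 0.797, 0.232 and 0.36 in ICAM1+ libraries, and at 0.465, 0.576 and 1.08 and 0.737, 0.636 and 0.59 CPM in perivascular progenitors and preadipocytes (interaction 4.91, adjusted p = 0.00023). Wnt10b, which holds back fat formation (3.75, adjusted p = 0.00548), and Dact2, a Wnt modulator (3.54, adjusted p = 0.0126), fell in both depots, and that of Dact2 missed the threshold without perivascular preadipocyte library 2 (3.31). Bmp6 had an interaction of 5.22 (adjusted p = 0.0054) that comes from its inguinal fall of -5.83, since its perivascular change (-0.61, not called) turned to 1.07 without perivascular progenitor library 1.

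Other genes with high interactions were those of the DPP4+ cells. Gabra2, which encodes a GABA receptor subunit (chromosome 5, 70957597 to 71095849), was at 80.2, 65.1 and 69.6 CPM in DPP4+ and 0.306, 0.387 and 0.565 in ICAM1+ libraries. It was at 0.826, 1.09 and 0.379 and 0.442, 0.44 and 0.644 CPM in perivascular progenitors and preadipocytes, so that 3 of the 4 groups were low (interaction 6.80, SE 0.50, adjusted p = 7.96e-06). Lypd6, a modulator of nicotinic receptors and Wnt signalling (chromosome 2, 50066429 to 50193569), had the same shape, at 34.9, 38.3 and 42.5 CPM in DPP4+, 1.1, 1.7 and 0.154 in ICAM1+, 1.34, 1.38 and 1.51 in perivascular progenitor and 1.47, 1.91 and 1.07 in perivascular preadipocyte libraries (interaction 5.32, adjusted p = 0.000333). Ccdc68 and Tmeff1 had interactions of 5.95 and 5.44 (adjusted p = 5.3e-05 and 0.00348).

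Several of the lowest interactions belonged to genes that were low in the DPP4+ libraries and higher in the other groups. Prlr, the prolactin receptor gene (chromosome 15, 10177238 to 10349180), was at 123, 138 and 122 CPM in perivascular progenitors and 96.3, 122 and 138 in perivascular preadipocytes, and rose from 3.86, 7.52 and 3.36 to 132, 142 and 151 CPM in inguinal cells. The 2 perivascular stages overlapped, and ICAM1+ libraries reached the perivascular level (interaction -4.95, SE 0.35, adjusted p = 7.66e-06). Col15a1, a basement membrane collagen gene used as a preadipocyte marker (chromosome 4, 47208161 to 47313167), was at 45.2, 121 and 92.2 and 45.5, 56.7 and 74.8 CPM in perivascular progenitors and preadipocytes, and rose from 3.86, 8.66 and 4.43 to 172, 209.8 and 208 CPM in inguinal cells (interaction -5.67, SE 0.52, adjusted p = 3.72e-05). Npy2r, a neuropeptide Y receptor gene, was instead high in the ICAM1+ libraries alone among these groups, at 17.2, 14.4 and 22.2 CPM, and at most 1.31 CPM elsewhere (interaction -4.93, adjusted p = 0.00879), and its interaction missed the threshold without perivascular progenitor library 3 (-3.63). Gdpd2, a glycerophosphodiester phosphodiesterase gene, reversed and had an interaction of -5.30 (adjusted p = 2.61e-06).

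**Figure D5:**
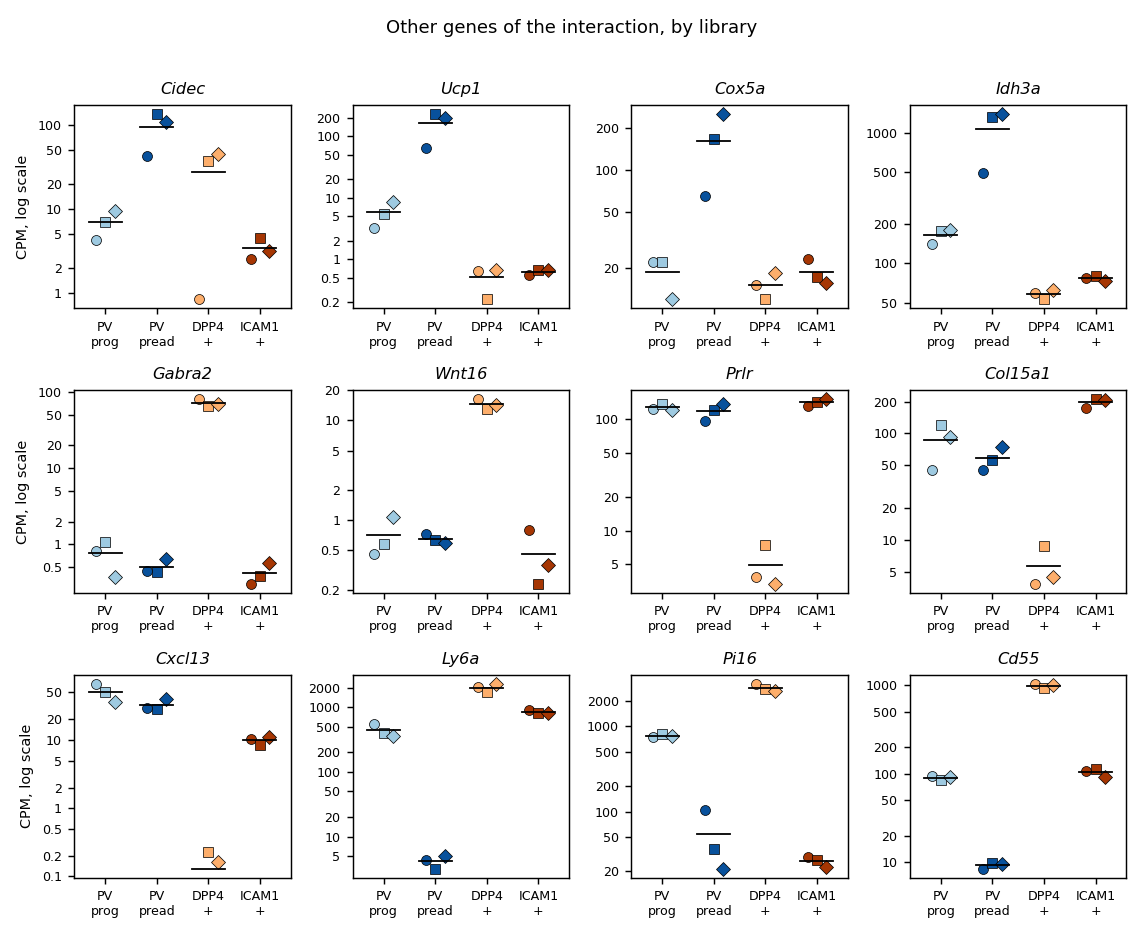
CPM (log axis) of 12 further genes by library, with circles, squares and diamonds for libraries 1, 2 and 3 and a bar for the group mean; Cxcl13 was at 0 in DPP4+ library 1, which a log axis cannot show. Ucp1, Cox5a and Idh3a rise in the perivascular step and did not pass in the inguinal one, Gabra2 and Wnt16 are high in DPP4+ libraries, Prlr and Col15a1 are low there, and Cd55 falls by 3.28 and 3.26 on the log2 scale in perivascular and inguinal cells.

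Matrix genes with a called interaction mostly had a lower one. Of 19 basement membrane genes, 8 fell and 0 rose in perivascular cells, 2 fell and 7 rose in inguinal cells, and 8 had a lower and 0 a higher interaction (median -0.93), and 17 were lower without the 3 libraries. Col4a1, a chain of the network collagen of basement membranes (chromosome 8, 11198423 to 11312826), went from 327, 554 and 408 to 2598, 2883 and 3297 CPM in inguinal cells. In perivascular cells it was at 494, 1003 and 983 CPM in progenitors and 1005, 596 and 500.3 in preadipocytes, where library 1 was the lowest progenitor and the highest preadipocyte library (interaction -3.01, adjusted p = 0.00113). Its neighbour Col4a2 had an interaction of -2.52 (adjusted p = 0.0014), with a perivascular change of 0.10 that was -0.50 without the 3 libraries. Nid2, which encodes nidogen 2 (chromosome 14, 19751265 to 19811787), reversed, from 207, 372 and 389.8 to 201, 167 and 103 CPM in perivascular and from 91.3, 102 and 85.7 to 232, 279 and 311 CPM in inguinal cells (interaction -2.60, adjusted p = 0.000885).

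Of 31 fibrillar collagen and elastic fibre genes, 6 had a lower interaction (median -0.72), against 24 lower and 1 higher without the 3 libraries. Over the step 18 of the 31 fell in perivascular cells and 9 in inguinal cells. Both are larger shares than the 16.1% and 8.61% of all genes tested that fell, while the ratio between the depots was alike. Col5a3, a fibrillar collagen chain gene (chromosome 9, 20770050 to 20815067), fell from 197, 444 and 372 to 65, 67.3 and 73.7 CPM in perivascular cells and was at 1593, 1705 and 1704 CPM in DPP4+ and 1413, 1452 and 1537 in ICAM1+ libraries (interaction -2.11, adjusted p = 0.00148). Vcan, which encodes the proteoglycan versican, had an interaction of -2.03 (adjusted p = 0.00484), within a list of 19 small proteoglycan and hyaluronan genes of which 7 had a lower and 0 a higher interaction (14 and 0 without the 3 libraries). Of 23 matrix proteases and inhibitors, 9 had a lower and 1 a higher interaction (14 and 3 without the 3 libraries), and Mmp3, Mmp19, Adamts4 and Adamts12 reversed. Mmp3, the stromelysin gene (chromosome 9, 7445822 to 7455975), went from 11.2, 8.75 and 11.2 to 7.52, 3.08 and 1.5 CPM in perivascular cells and from 1.5, 2.51 and 1.48 to 25.4, 25 and 20.7 CPM in inguinal cells (interaction -5.05, SE 0.63, adjusted p = 0.000314), and its perivascular fall missed the threshold without perivascular progenitor library 3 or perivascular preadipocyte library 2 or 3. The aggrecanase gene Adamts4 and Mmp19 had interactions of -2.36 and -2.41 (adjusted p = 0.00179 and 4.36e-05), the perivascular fall of Adamts4 missed the threshold without perivascular progenitor library 3 or perivascular preadipocyte library 2 or 3 (-0.84 to -0.66), and 28.3% of the exon length of Mmp19 overlaps other genes.

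Progenitor markers fell in both depots. All 22 fell over the perivascular step and 21 over the inguinal step, with median changes of -2.27 and -3.10. Of these, 8 had a higher and 3 a lower interaction, that is, falls of different size in the same direction. Pi16, a surface marker of interstitial progenitors (chromosome 17, 29317680 to 29330593), went from 743, 811 and 771 to 104, 36.8 and 21.6 CPM in perivascular cells and from 3106, 2702 and 2594 to 29.5, 26.8 and 22.5 CPM in inguinal cells. Its interaction was 2.89 (SE 0.58, adjusted p = 0.00666). Cd55, another marker of these cells (chromosome 1, 130439027 to 130462744), went from 93.8, 85.7 and 92.6 to 8.5, 9.88 and 9.66 CPM in perivascular cells and from 1029, 935 and 1018 to 107, 114 and 90.8 CPM in inguinal cells. Its stage changes were -3.28 and -3.26, and the interaction of -0.02 had an SE of 0.18 (adjusted p = 0.951). Dpp4, whose protein defined the inguinal sort, is counted among these markers. Its interaction of 1.42 is not a finding of its own and missed the threshold without any of 3 single libraries (1.09 to 1.36).

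Ly6a, the gene of the stem cell antigen SCA1 (chromosome 15, 74994877 to 74998031), had the lowest interaction among the named genes that fell in both depots. It was at 558, 397 and 359.6 CPM in perivascular progenitors and 4.33, 3.23 and 4.99 in perivascular preadipocytes, while inguinal cells went from 2073, 1694 and 2267 to 897, 813 and 816 CPM. The perivascular preadipocytes lay far below the other 3 groups (interaction -5.46, SE 0.31, adjusted p = 3.14e-06). Ly6c1, a related surface gene (chromosome 15, 75044018 to 75048830), showed the same, at 158, 115 and 101, 2.26, 1.71 and 3.81, 924, 807 and 1034 and 326, 301 and 301 CPM in the same order of groups (interaction -4.01, adjusted p = 2.91e-05), and near-identical copies within the Ly6 family make their counts uncertain. Ifi205 also fell more in perivascular cells (-2.70, adjusted p = 0.00113). Sema5b, an axon guidance gene, rose in both depots and more in inguinal cells (-2.79, adjusted p = 7.68e-05). Genes that fell more in inguinal cells were Dync1i1, a dynein chain gene (4.64), Slc44a5 (4.35), Acpp (4.03) and Dmkn (3.84), with adjusted p of 0.000303, 0.000665, 0.000365 and 0.000504.

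More preadipocyte markers rose in inguinal than in perivascular cells. Of 25 tested, 17 rose over the inguinal step and 7 over the perivascular step, where 5 fell, and 12 had a lower and 0 a higher interaction (median -1.40). Icam1, which these counts include, fell from 90.3, 102 and 95.4 to 52.9, 35.1 and 30.4 CPM in perivascular cells. Its rise in inguinal cells from 67.9, 73.5 and 43.7 to 498, 485 and 507 CPM follows from the ICAM1 sort and is no finding. Ggt5, which encodes a gamma-glutamyltransferase that acts on leukotrienes (chromosome 10, 75589340 to 75617200), went from 17.2, 17.3 and 16.7 to 8.9, 7.43 and 7.51 CPM in perivascular and from 11, 9.57 and 11.9 to 38.2, 45.7 and 53.3 CPM in inguinal cells (interaction -3.18, SE 0.23, adjusted p = 7.96e-06). Mgp, the matrix Gla protein gene (chromosome 6, 136872435 to 136875823), was at 183, 147 and 141 CPM in perivascular progenitors and 260.2, 125 and 142 in perivascular preadipocytes, and rose from 3.14, 4.02 and 2.62 to 47.5, 37.9 and 41.2 CPM in inguinal cells (interaction -3.52, adjusted p = 0.000105). Without the 3 libraries, 15 preadipocyte markers had a lower and 5 a higher interaction.

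Most cell division genes rose over the step in both depots. Of 30 mitosis genes, 29 rose in perivascular and 30 in inguinal cells, and 10 had a lower and 0 a higher interaction (median -0.66), against 18 and 0 without the 3 libraries. Of 30 DNA replication genes, 26 and 22 rose, 2 had a lower interaction (Mcm2 and Mcm3) and 1 a higher one (Rrm1, 1.09, adjusted p = 0.00784), with a median of 0.01. That is 10% called, against 15.0% of all genes tested. The calls of Mcm2 (-0.61, adjusted p = 0.0446) and Mcm3 (-0.72, adjusted p = 0.047) missed the threshold in 12 and 13 of the 20 alternative fits, each of them without any of 10 single libraries (-0.70 to -0.55 and -0.79 to -0.61). Top2a, the topoisomerase that untangles chromosomes (chromosome 11, 98992943 to 99024189), went from 93.1, 128 and 136 to 177, 212 and 187 CPM in perivascular cells and from 16.6, 20.9 and 14.3 to 72.4, 68.6 and 67.2 CPM in inguinal cells. The DPP4+ libraries were the lowest of the 4 groups (interaction -1.32, SE 0.25, adjusted p = 0.00433). Kif11, a spindle motor gene (chromosome 19, 37376403 to 37421859), went from 37.5, 48.2 and 54 to 66.6, 83.9 and 59.3 CPM in perivascular cells and from 6.36, 8.66 and 5.91 to 31.8, 25.2 and 24.4 CPM in inguinal cells (interaction -1.37, adjusted p = 0.00784), and its perivascular rise missed the threshold in 10 of the 20 alternative fits (0.40 to 0.66). Mki67, the Ki-67 gene, had an interaction of -1.22 (adjusted p = 0.0355) that missed the threshold without any of 8 single libraries (-1.08 to -1.29).

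The promoters of Kif11 and Top2a are shown because their mitosis list shares letters across members. They lie at chr19:37376132-37376431 (plus strand) and chr11:99024140-99024439 (minus strand), and capitals mark matches to the same words on either strand.
Kif11: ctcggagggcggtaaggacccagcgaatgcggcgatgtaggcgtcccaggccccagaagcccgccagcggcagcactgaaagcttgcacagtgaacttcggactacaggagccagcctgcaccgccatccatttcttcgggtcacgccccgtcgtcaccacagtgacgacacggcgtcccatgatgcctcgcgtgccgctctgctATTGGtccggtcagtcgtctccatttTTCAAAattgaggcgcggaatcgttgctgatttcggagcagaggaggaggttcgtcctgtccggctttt
Top2a: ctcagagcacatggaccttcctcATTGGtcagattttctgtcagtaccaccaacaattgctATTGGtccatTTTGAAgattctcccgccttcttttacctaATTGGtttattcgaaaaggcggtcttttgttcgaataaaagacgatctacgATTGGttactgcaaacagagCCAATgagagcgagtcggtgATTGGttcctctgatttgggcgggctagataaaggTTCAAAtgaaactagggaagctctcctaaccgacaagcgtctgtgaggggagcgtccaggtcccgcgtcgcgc
Both hold the CCAAT box and the cell cycle homology word, each once in Kif11 and repeatedly in Top2a. Among 25 promoters of the mitosis list, 84.0% held a CCAAT box and 80.0% the cell cycle homology word, against 37.9% and 18.1% of all promoters and 38.3% and 12.2% of those of genes tested. Among 166 promoters of genes that fell in perivascular and rose in inguinal cells the shares were 32.5% and 19.9%.

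Markers of other cell types moved with some of these results. Of 8 mast cell genes tested, 4 had a higher interaction, among them the protease genes Tpsb2 (5.17, adjusted p = 0.00851) and Cma1 (4.88, adjusted p = 0.0125). Each was lost with limma-voom weights. The other calls, Cpa3 (3.95, adjusted p = 0.0372) and Hdc (1.44, adjusted p = 0.0246), held in 10 and 12 of the 20 alternative fits. For Hdc, preadipocyte libraries lay below progenitor libraries in both depots. Tpsb2 was at 0.155, 0 and 0.108 CPM in perivascular progenitors. Over the 3 libraries of that group, Tpsb2 had 5 counts, Cma1 10 and Cpa3 10. The mast cell sum was 9.5, 13.1 and 13.2 CPM in perivascular progenitors, 25.5, 26.4 and 19.8 in perivascular preadipocytes and 108, 121 and 72.1 in ICAM1+ libraries. Of 12 mesothelial markers, 4 had a lower interaction, Krt8, Krt18, Cldn15 (-2.11, adjusted p = 0.00102) and Upk3b (-1.98, adjusted p = 0.0388), and that of Upk3b missed the threshold without any of 8 single libraries (-1.71 to -2.15). The sum of the 12 was 177, 312 and 264 CPM in perivascular progenitors, 116, 140.3 and 93.7 in perivascular preadipocytes, 46.5, 54.3 and 48 in DPP4+ and 107, 120.0 and 118 in ICAM1+ libraries. Cldn15 alone gave 76, 72.9 and 75.8 CPM of the ICAM1+ sums and rose in perivascular cells, from 22.7, 27.5 and 24.7 to 41, 50.3 and 54.2 CPM, where Msln, Upk3b, Upk1b, Krt19, Gpm6a and Muc16 fell. Msln, Upk1b, Lrrn4 and Wt1 were at most 1.37 CPM in any inguinal library. Of 9 Schwann and neural markers, S100b (-2.11, adjusted p = 0.000241) and Ncam1 (-3.07, adjusted p = 0.00102) had lower interactions, the perivascular fall of S100b missed the threshold in 9 of the 20 alternative fits (-0.61 to -0.39), and the sum of all 10 listed was 59.6, 67.8 and 68.6 CPM, 53.6, 46.2 and 33.4, 39.4, 87.9 and 43.8 and 161, 171 and 174 in the same order. Smooth muscle markers had 1 of 12 lower (Cald1), endothelial markers 0 of 12 (0 at an unadjusted p under 0.05), and pericyte markers 1 higher (Kcnj8, 2.06) and 1 lower (Notch3) of 10. The lower calls were 9 smooth muscle, 3 endothelial and 6 pericyte markers without the 3 libraries, when 3921 of 19396 genes were called lower. With all libraries 8.66% of genes tested were called lower. Of 10 epithelial markers, 2 had a lower interaction, the keratin genes Krt5 and Krt14, with sums of 5.42, 7.89 and 9.85 CPM in perivascular progenitors, 3.74, 6.65 and 2.79 in perivascular preadipocytes, 8.57, 16.6 and 6.56 in DPP4+ and 20.2, 27.6 and 26.6 in ICAM1+ libraries. Myh11 and Acta2, contractile genes of smooth muscle, had interactions of -0.46 and -1.18 that did not pass (adjusted p = 0.673 and 0.1) and that passed without the 3 libraries (-1.69 and -2.06), that of Acta2 also without DPP4+ library 2 (-1.80) and with limma-voom weights (-1.28). The part of these cells in the results above was not tested.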

How the data were processed

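RNA of sorted cells was made into SMART-Seq v4 poly(A) libraries, and the deposited table holds raw read counts per gene for 12 libraries, per the labels. The submitters' processing notes name STAR 2.5.2a, mm10 and DESeq2 1.26.0. No source used here gives the counting tool, annotation or strand setting, so reads of overlapping and antisense genes cannot be told apart. The deposited normalised and log-transformed tables of the same libraries were not used.

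Totals ran from 15614628 to 25674461 counts. Of 31099 genes, 18855 passed edgeR's filterByExpr (minimum count 10). Counts were scaled by TMM, and 1 model of all 4 groups was fitted with edgeR 4.0.16 in R 4.3.3 (quasi-likelihood test, 2-sided, Benjamini-Hochberg adjustment over all genes tested, threshold 0.05). Standard errors (SE) are the log2 fold change divided by the square root of its F statistic. The log2 CPM behind the sign in each set of libraries used a prior count of 2. Reversed means both stage changes called in opposite directions. Libraries are pools of pups, so the p-values measure the spread between pools.

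The same number marks tissues of the same pups, per the labels, which pairs the libraries. Correlations of the deviations of same-numbered libraries from their group means ran from -0.21 to 0.15. The fit without the pool as a block is the main one, and the blocked fit an alternative. Other alternatives were DESeq2 1.42.0, its size factors, library totals, limma 3.58.1 voom with library weights, other filters, omission of each library and of 3 libraries together.

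The members, gene lists and tests were chosen with earlier results of these data known. Genes are named by rule: among called genes with a symbol, 10 CPM or more in a group and the same sign in all 3 sets of same-numbered libraries, the 12 highest and 12 lowest interactions. Further genes are the 10 largest reversals each way, judged by the smaller stage change, the 4 highest and 4 lowest interactions among genes changed the same way in both depots, up to 4 called genes per list and 15 preset genes. Gene positions and exon overlaps are from GENCODE and promoters from RefSeq, both on GRCm38.p6, and their gene starts can differ. C1s2, Krt5, Krt14, Bmp3, the mesothelial markers and the reversed members listed by name fall outside the rule and were chosen after their values were seen. Some genes the rule names are not reported here.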

Additional observations from a re-analysis of the deposited data

Results flagged for a closer look

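The stage change of each gene named here differed between the depots by the test of the difference itself, with edgeR and Benjamini-Hochberg adjustment over 18855 genes. Values are interactions on the log2 scale, the perivascular minus the inguinal stage change, and groups of 3 libraries were too small for a check of single outlying samples. Among genes that fell in perivascular and rose in inguinal cells, the interaction was -1.46 for Zfp36, -1.87 for Gbp2, -2.11 for S100b, -2.27 for Hoxa3, -2.28 for Il6, -2.30 for Fgf7, -2.36 for Adamts4, -2.37 for Cxcl16, -2.41 for Mmp19, -2.60 for Nid2, -2.87 for Epha4 and -2.89 for Igf1. In the same class it was -2.95 for Sema5a, -2.96 for C2, -3.04 for Nrp1, -3.18 for Ggt5, -3.19 for C1s1, -3.44 for C4b, -3.68 for Sphk1, -3.82 for Scg3, -3.97 for Ms4a4d, -4.0 for Zim1, -4.04 for Il33 and -4.23 for Plekha6. In the same class it was -4.29 for Icam1, -4.42 for Ccbe1, -4.63 for Gli1, -4.81 for Ifitm1, -4.84 for Chodl, -5.04 for Nlgn1, -5.05 for Mmp3, -5.30 for Gdpd2 and -6.35 for Vit. The inguinal changes of Icam1, and of Dpp4 below, follow from the inguinal sort and are no findings. Among genes that rose in perivascular and fell in inguinal cells, the interaction was 6.76 for Cidec, 5.84 for Acvr1c, 5.45 for Thbs4, 4.89 for Gchfr, 3.94 for Tnfrsf21, 3.08 for Ell2, 2.84 for St3gal6, 2.54 for Lrrc8b, 2.52 for Pdgfc, 2.48 for Bnip3, 2.44 for Scd1 and 2.33 for Slc25a20. Among genes that fell in both depots, the interaction was 4.64 for Dync1i1, 4.35 for Slc44a5, 4.03 for Acpp, 3.84 for Dmkn, 3.75 for Wnt10b, 3.54 for Dact2, 3.50 for Bmp4, 3.30 for Bmp7, 2.89 for Pi16, 2.53 for Aldh1a3, 2.06 for Kcnj8 and 1.42 for Dpp4. In the same class it was -2.70 for Ifi205, -4.01 for Ly6c1 and -5.46 for Ly6a. Among genes that rose in both depots, the interaction was -1.22 for Mki67, -1.32 for Top2a, -1.37 for Kif11, -1.82 for Psmb9, -2.11 for Cldn15 and -2.79 for Sema5b. Among genes that rose in perivascular cells with no called inguinal change, the interaction was 9.10 for Cfd, 5.70 for Chchd10, 5.61 for Pck1, 5.40 for Plin5, 5.40 for Cidea, 5.17 for Tpsb2, 4.88 for Cma1, 4.54 for Cox7a1, 4.49 for Ucp1, 2.79 for Cox5a, 2.75 for Uqcrfs1 and 2.56 for Adipoq. In the same class it was 2.47 for Etfa, 2.43 for Acadl, 2.30 for Sdhd, 2.29 for Idh3a, 2.09 for Cyc1, 1.80 for Hspe1, 1.42 for Hspd1, 1.09 for Rrm1 and 1.09 for Rpl13. Among genes that fell in perivascular cells with no called inguinal change, the interaction was -1.40 for Dlk1, -1.42 for Plagl1, -1.67 for Dhrs3, -1.98 for Upk3b, -2.03 for Vcan, -2.06 for Oasl2, -2.10 for Pdgfra and -2.11 for Col5a3. Among genes that rose in inguinal cells with no called perivascular change, the interaction was -0.93 for Cald1, -2.08 for Meox1, -2.12 for Acvr2a, -2.15 for Psmb8, -2.27 for Egr2, -2.37 for Nr2f2, -2.52 for Col4a2, -2.80 for Notch3, -2.95 for Meox2, -3.01 for Col4a1, -3.07 for Ncam1 and -3.52 for Mgp. In the same class it was -3.63 for Heyl, -4.75 for Hhip, -4.93 for Npy2r, -4.95 for Prlr, -5.67 for Col15a1 and -6.82 for Cxcl13. Among genes that fell in inguinal cells with no called perivascular change, the interaction was 6.80 for Gabra2, 5.95 for Ccdc68, 5.44 for Tmeff1, 5.32 for Lypd6, 5.22 for Bmp6, 4.91 for Wnt16, 4.87 for Sema3e, 2.23 for Osr2 and 1.87 for Hspb8. The parts played by sort gates, by other cell types in the sorted fractions and by the libraries that stood apart were not tested.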

How the results depend on the processing

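Of 2834 called interactions the number ranged from 1666 to 5231 when 1 library was left out, with 4847 without perivascular progenitor library 1 and 5231 without perivascular preadipocyte library 1. The higher calls ranged from 605 to 2511, the lower calls from 1052 to 2866, the reversed genes that rose in perivascular cells from 29 to 177 and those that fell there from 141 to 463. The stage change was called for 3916 to 8000 genes in perivascular and 2276 to 4292 in inguinal cells. Where a library was left out, its group was fitted from 2 libraries.

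With limma-voom weights 8384 interactions were called, 4272 higher and 4112 lower, with 326 and 764 reversed genes that rose or fell in perivascular cells and 10914 perivascular and 6052 inguinal stage changes. Without the 3 libraries 7783 were called, 3862 higher and 3921 lower, with 322 and 662 reversed genes and 9893 perivascular stage changes. With library totals 722 were higher and 2382 lower, 37 and 361 reversed, and 5281 inguinal stage changes were called. The reversed genes that rose in perivascular cells numbered 108 with DESeq2 and 38 with no filter. The cause of these shifts was not tested.

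The labels pair same-numbered libraries. With the replicate block, 2158 interactions were called, 2114 of them among the 2834. Beyond the counts given for respiratory chain genes, the interactions of Adipoq, Rpl13, Mcm2 and Mcm3 missed the threshold. So did the perivascular rises of Kif11 and Psmb9 and the inguinal fall of Thbs4. Among other members of the lists counted here, the interactions of Cpa3, Retn, Hspb1, Hoxa7, Hoxa2 and Stard4 also missed it.

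For the genes described, the interaction kept its side of the threshold in 3293 of the gene and setting combinations. It lost the threshold in 205 and gained it in 22. The 3293 include changes of sign where the interaction passed in neither fit. Perivascular stage changes that turned direction and passed in the fit named were those of Bmp6, Col4a2 and Heyl. That of Bmp6 was 0.99 with voom weights, 1.35 without the 3 libraries and 1.07 without perivascular progenitor library 1. It was as low as -1.08 without other single libraries. Those of Col4a2 (-0.50) and Heyl (-0.63) turned without the 3 libraries. None of these was called with all libraries. Values near or below 1 CPM rest on few counts.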

Other observations

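Axon guidance genes, which also steer vessels and mesenchymal cells, held several reversals. Of 34, 5 had a higher and 7 a lower interaction (8 and 15 without the 3 libraries), and Sema5a, Nrp1, Epha4, Epha7 and Ephb2 fell in perivascular and rose in inguinal cells. Sema5a, a semaphorin gene, went from 75.6, 114 and 103 to 50.6, 45.1 and 46.5 CPM in perivascular and from 41.4, 37.8 and 35.3 to 138, 143 and 149.9 CPM in inguinal cells (interaction -2.95, adjusted p = 7.98e-06). Nrp1, a receptor for semaphorins and VEGF, had an interaction of -3.04 (adjusted p = 0.0002), and its perivascular fall missed the threshold without perivascular progenitor library 3 (-0.83) or perivascular preadipocyte library 2 (-0.82). Epha4 had one of -2.87 (adjusted p = 0.000241). Sema3e had a higher interaction (4.87, adjusted p = 0.0043), at 43.2, 43.4 and 41.7 CPM in DPP4+ and 0.429, 0.387 and 1.34 in ICAM1+ libraries.

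Of 47 adipogenic and developmental transcription factor genes, 2 had a higher and 3 a lower interaction (10.6% called, against 15.0% of all genes tested). These were 15 and 7 without the 3 libraries, when 7783 of 19396 genes were called. Osr2 fell in inguinal cells from 378, 299 and 362 to 80.1, 80.4 and 74.1 CPM and was at 5.47, 5.47 and 5.79 and 5.21, 6.26 and 6.28 CPM in perivascular progenitors and preadipocytes (interaction 2.23, adjusted p = 2.69e-05). Nr2f2, Meox1 and Meox2 rose in inguinal cells and did not pass in perivascular cells (interactions -2.37, -2.08 and -2.95, adjusted p = 6.48e-05, 0.00198 and 0.000337). Hoxa3 reversed (-2.27, adjusted p = 0.00131), within 18 genes of Hox groups 1 to 8 of which 4 had a lower and 1 a higher interaction (2 and 3 without the 3 libraries), and 27.1% of its exon length is shared with other genes. Its perivascular fall missed the threshold in 5 of the 20 alternative fits (-0.79 to -0.56).

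Heat shock genes moved in both directions. Hspe1 and Hspd1, the mitochondrial chaperonins, rose in perivascular preadipocytes (interactions 1.80 and 1.42, adjusted p = 0.0236 and 0.0199). Those calls were lost without any of 6 single libraries for Hspe1 (1.71 to 1.76) and without perivascular preadipocyte library 2 (1.26) or ICAM1+ library 3 (1.31) for Hspd1. Hspb8, a small heat shock gene, fell in inguinal cells from 158, 127 and 135 to 46.1, 47 and 37.7 CPM (interaction 1.87, adjusted p = 0.000785). Of the 17 heat shock genes, 4 had a higher and 4 a lower interaction (47.1% called, against 15.0% of all genes tested). The remaining higher gene was Hspb1 (2.31, adjusted p = 0.0379), whose call held in 9 of the 20 alternative fits. The 4 lower ones are not named here, and the lowest interaction of the list was -1.4. Of 23 TGF-beta and activin genes, 5 had a lower and 0 a higher interaction (14 and 1 without the 3 libraries), among them the activin receptor gene Acvr2a (-2.12, adjusted p = 0.00442). Of 23 cholesterol synthesis genes, 1 had a higher and 1 a lower interaction (8.70% called, against 15.0% of all genes tested). These were 2 and 7 without the 3 libraries, when 7783 of 19396 genes were called.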
